A study of Mus musculus with 5 samples.

Results

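Connexins are the membrane proteins of gap junctions, the channels through which neighbouring cells pass ions and small metabolites. Of 56691 gene IDs counted by RNA sequencing of mouse keratinocytes, the 4 connexin genes Gja1, Gjb2, Gjb5 and Gjb6 were taken by gene symbol, and all 4 passed the filter on low counts. They are Gja1 (ENSMUSG00000050953.11, encoding Cx43), Gjb2 (ENSMUSG00000046352.8, Cx26), Gjb5 (ENSMUSG00000042357.3, Cx31.1) and Gjb6 (ENSMUSG00000040055.10, Cx30). The libraries came from back skin of mice aged 28 days. In 3 libraries the keratinocytes had been sorted for GFP, and their labels call them Lrig1 positive epidermal stem cells (GFP replicates 1, 2 and 3). In the other 2 no GFP sort was used, and the labels call them wild-type basal cells of the epidermis (bulk replicates 1 and 2). The GFP construct, its promoter, the gates and whether animals were pooled are nowhere stated in the labels. The only comparison the labels allow is GFP-sorted against bulk cells. As the labels give Lrig1 positive and wild-type as the genotypes of these groups, genotype and sort cannot be told apart.

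Connexin subunits assemble as a ring in the membrane of one cell, and the ring docks with that of its neighbour to form a channel. Different connexins can share a ring, so the mixture a cell makes affects what passes. In rodent epidermis Cx43 is the widespread connexin of the lower layers, while Cx26 and Cx31.1 are known mainly from more differentiated layers and from parts of the hair follicle. In humans, mutations of GJB2 cause deafness, some with thickened skin, mutations of GJB6 cause a form of ectodermal dysplasia with nail and hair defects, and mutations of GJA1 cause oculodentodigital dysplasia. Gjb5, whose protein forms functional channels poorly in experimental expression systems, lies on chromosome 4. Gjb2 lies between Gja3 and Gjb6 on chromosome 14, and Gja1 stands apart from other connexin genes on chromosome 10.

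The promoter stretches of the 4 genes are shown because the genes differed in how their mRNA changed, and because 2 of them are chromosomal neighbours. Each runs from 250 bases before to 50 after the RefSeq start (build GRCm38.p6), on the gene's own strand. Capitals mark matches on either strand to 4 motifs that were searched, the AP-1 motif TGANTCA, the GC box GGGCGG, the TATA box TATAAA and the E-box CACGTG. The sequences lie at chr4:127358115-127358414 (minus strand) for Gjb5, chr14:57104653-57104952 (minus) for Gjb2, chr14:57133562-57133861 (minus) for Gjb6 and chr10:56377050-56377349 (plus) for Gja1.
Gjb5: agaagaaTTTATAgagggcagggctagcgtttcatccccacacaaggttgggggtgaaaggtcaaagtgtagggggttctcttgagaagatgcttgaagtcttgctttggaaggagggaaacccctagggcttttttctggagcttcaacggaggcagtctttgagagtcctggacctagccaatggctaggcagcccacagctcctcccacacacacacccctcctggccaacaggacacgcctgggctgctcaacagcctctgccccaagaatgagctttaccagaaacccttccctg
Gjb2: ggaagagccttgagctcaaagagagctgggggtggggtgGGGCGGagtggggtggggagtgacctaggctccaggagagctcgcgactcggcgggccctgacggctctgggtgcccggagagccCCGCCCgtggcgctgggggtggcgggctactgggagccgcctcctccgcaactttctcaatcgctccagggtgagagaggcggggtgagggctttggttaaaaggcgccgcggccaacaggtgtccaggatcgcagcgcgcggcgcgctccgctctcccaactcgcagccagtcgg
Gjb6: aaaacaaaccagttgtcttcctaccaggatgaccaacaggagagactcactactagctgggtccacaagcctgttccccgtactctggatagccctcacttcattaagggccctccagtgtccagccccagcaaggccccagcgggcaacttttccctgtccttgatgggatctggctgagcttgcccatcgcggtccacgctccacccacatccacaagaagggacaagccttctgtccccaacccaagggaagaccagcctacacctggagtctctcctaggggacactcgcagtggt
Gja1: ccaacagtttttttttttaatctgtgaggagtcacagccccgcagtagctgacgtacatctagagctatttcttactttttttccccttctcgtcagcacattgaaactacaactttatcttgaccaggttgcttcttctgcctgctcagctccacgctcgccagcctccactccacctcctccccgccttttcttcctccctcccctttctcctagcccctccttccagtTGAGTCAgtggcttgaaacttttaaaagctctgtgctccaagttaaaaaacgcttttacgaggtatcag

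The Gjb2 stretch had a GC content of 70.0% and 27 CpG dinucleotides, against a median of 52.7% and 7 over 32851 mouse promoter stretches of this length. It held 2 GC boxes, 211 and 126 bases before the start, a motif found in 35.7% of those stretches. Its neighbour Gjb6 had a GC content of 57.3%, 6 CpG dinucleotides and none of the 4 motifs. Gjb5 had 54.3% and 3 CpG dinucleotides, with TATAAA on the opposite strand 243 bases before the start (13.6% of all stretches hold this motif). Gja1 had 47.7% and 8 CpG dinucleotides, with an AP-1 match 19 bases before the RefSeq start, a motif in 7.81% of all stretches. For Gja1 alone, no GENCODE M21 transcript of the gene held the 20 bases looked for just after that start, so the position holds for the RefSeq start only. The motif CACGTG, held by 7.15% of all stretches, was in none of the 4. These are matches of letters in a short window, and no overlap between different motifs occurred in these 4.

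The libraries held 56829330 to 105887450 counts. Lrig1, the gene the sort is named for, was at 209.8, 226.2 and 212.7 CPM in GFP replicates 1 to 3, against 163.4 and 155.2 CPM in the bulk libraries (CPM, counts scaled to a common TMM-adjusted library size). Its log2 change, GFP over bulk, of 0.44 ± 0.18 (SE) did not pass edgeR's quasi-likelihood test (adjusted p = 0.292). GFP replicate 3 was the only library rich in the female transcript Xist, with 53714 counts against at most 8 elsewhere, and it was the lowest library for each of the 4 connexins. Basal layer markers summed to 37410 to 45420 CPM in GFP libraries and 24370 to 27860 CPM in bulk libraries. Suprabasal markers summed to 13060 to 18200 CPM in GFP libraries and 23540 to 29830 CPM in bulk libraries. The bulk cells labelled basal thus also held RNA of suprabasal marker genes, as did the GFP-sorted cells at a lower level. Hair matrix and inner root sheath markers summed to 252.0 to 349.8 CPM in GFP libraries and 2010 to 3708 CPM in bulk libraries. The gene of this list with the highest GFP mean made up 161.5 to 258.8 CPM of the GFP sums. Leaving it out was a choice made after seeing the data. The sums without it were 90.5 to 91.0 CPM in GFP libraries and 1757 to 3422 CPM in bulk libraries.

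GFP-sorted cells carried less Gjb5 and Gjb2 mRNA than bulk cells, at 43.2% and 47.4% of the bulk mean, while their Gja1 level was close to that of bulk cells. Gjb6 had a mean of 69.6% of the bulk mean with overlapping libraries. Gjb5 passed the test. Gjb2 did not, and passed in 3 of 16 alternative fits, among them those that paired libraries by title number. In edgeR's quasi-likelihood test over 18583 genes, 5.14% of all genes were called lower and 0.145% higher in GFP-sorted cells (Benjamini-Hochberg adjusted p under 0.05). Of the 4 connexins, 1 was called lower and 0 were called higher. As these are RNA totals of cell mixtures, fewer cells of a type and less RNA per cell cannot be told apart.

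**Figure D1:**
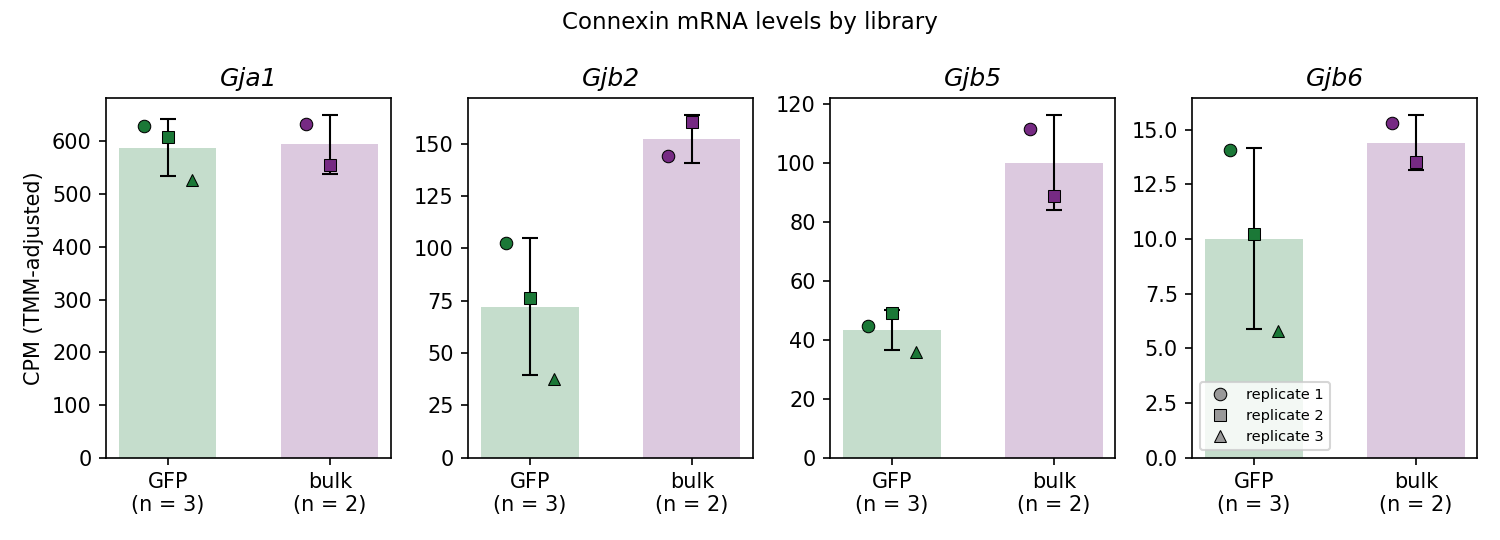
CPM (TMM-adjusted, each panel on its own axis from 0) of the 4 connexin genes in GFP-sorted (n = 3, left) and bulk cells (n = 2, right). Points are libraries, bars are means and error bars are SD. The GFP points of Gjb5 (35.9 to 49.1 CPM) and of Gjb2 (37.4 to 102.5 CPM) all lie below the bulk points, and the GFP and bulk points of Gja1 overlap.

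Gjb5 encodes Cx31.1, a connexin of stratified epithelia. It was at 44.8, 49.1 and 35.9 CPM in GFP replicates 1, 2 and 3, against 111.5 and 88.7 CPM in bulk replicates 1 and 2. The highest GFP library lay below the lowest bulk library, and the gap between them was wider than the spread within either group. The means were 43.3 ± 6.76 CPM in GFP-sorted cells and 100.1 ± 16.2 CPM in bulk cells (SD, n = 3 and 2). The log2 change was -1.21 ± 0.21 (SE), with a 95% interval of -1.69 to -0.73 (edgeR adjusted p = 0.0137). Between libraries that share a title number, the log2 difference was -1.32 for GFP 1 over bulk 1 and -0.85 for GFP 2 over bulk 2. Without bulk replicate 1 the log2 change was -1.03 and was not called (edgeR adjusted p = 0.123), a fit that rests on 1 bulk library.

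Gjb2 encodes Cx26, which in mice is found in hair follicles and in skin that is thickened or wounded. It was at 102.5, 76.5 and 37.4 CPM in GFP replicates 1, 2 and 3, against 144.1 and 160.3 CPM in the bulk libraries. All GFP libraries lay below both bulk libraries, but they differed from each other by far more than the bulk libraries did, with GFP replicate 3 lowest. The means were 72.1 ± 32.8 CPM in GFP-sorted cells and 152.2 ± 11.5 CPM in bulk cells (SD, n = 3 and 2). The log2 change was -1.08 ± 0.36, with a 95% interval of -1.92 to -0.24, and was not called (edgeR adjusted p = 0.184, unadjusted 0.0183). With the title number as a replicate block it was called at -0.78 ± 0.14 (edgeR adjusted p = 6.43e-07), as were 19.7% of all genes lower and 16.4% higher in that fit. GFP replicate 3, whose title number no bulk library shares, added nothing to the group change in any fit with this block. Without GFP replicate 3 the log2 change was -0.77 and was not called without a block (edgeR adjusted p = 0.0723).

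Gjb6 encodes Cx30, which can join Cx26 in mixed channels, and had the lowest level of the 4 genes. It was at 14.1, 10.2 and 5.80 CPM in GFP replicates 1, 2 and 3, against 15.3 and 13.5 CPM in the bulk libraries. GFP replicate 1 lay between the bulk libraries and GFP replicate 3 well below them, so the groups overlapped. The log2 change of -0.52 ± 0.35 was not called (95% interval -1.32 to 0.28, edgeR adjusted p = 0.532), nor was it with the replicate block (-0.26, edgeR adjusted p = 0.211). It was called lower, at -0.42, only with both the block and a correction for gene length and GC content (edgeR adjusted p = 0.0328), a fit in which 16.2% of all genes were called lower. Its 541 to 1506 counts per library were the fewest of the 4 genes.

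Gja1 encodes Cx43, the connexin with the most mRNA in every library. It was at 628.7, 607.9 and 526.5 CPM in GFP replicates 1, 2 and 3, against 633.6 and 555.2 CPM in the bulk libraries. The groups overlapped, with 1 bulk library above every GFP library and GFP replicate 3 below both bulk libraries, and with means of 587.7 ± 54.1 CPM in GFP-sorted cells and 594.4 ± 55.5 CPM in bulk cells. The log2 change was -0.02 ± 0.22 and was not called (edgeR adjusted p = 0.980). Its 95% interval of -0.52 to 0.49 still allows a modest change in either direction. The sign of this near-zero value turned with the replicate block (0.06) and in 3 other fits.

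How the 4 genes changed relative to each other was read from log2 ratios within a library, which do not depend on scaling. The ratio of Gja1 to Gjb5 was 3.81, 3.63 and 3.88 in GFP replicates 1 to 3, against 2.51 and 2.65 in the bulk libraries, a difference of 1.20. The ratio of Gja1 to Gjb2 was 2.62, 2.99 and 3.82 in GFP libraries, against 2.14 and 1.79 in bulk libraries, a difference of 1.18. In both ratios the groups did not overlap, and Gja1 thus outweighed the other gene more in every GFP library than in either bulk library. The ratio of Gjb2 to Gjb6 was 2.86, 2.91 and 2.69 in GFP libraries, against 3.24 and 3.57 in bulk libraries. Within the GFP libraries this pair of neighbouring genes kept nearly the same ratio (SD 0.11), although the level of Gjb2 there ran from 37.4 to 102.5 CPM. The level of Gjb6 there ran from 5.80 to 14.1 CPM. The ratio of Gja1 to Gjb5, on different chromosomes, had an SD of 0.13. The levels of these genes varied less, from 526.5 to 628.7 CPM and from 35.9 to 49.1 CPM, so the 2 SDs are not directly comparable. Whether the position of the genes plays a part was not tested. The SD of the other ratios in GFP libraries was 0.48 to 0.61. The ratio of Gjb2 to Gjb5 overlapped between the groups, with 1.20, 0.64 and 0.06 in GFP libraries and 0.37 and 0.85 in bulk libraries. The 6 ratios come from only 4 genes. The smallest p that a two-sided exact permutation test of 3 against 2 libraries allows is 0.2 (0.24 adjusted over the 6), so it cannot call any of them.

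**Figure D2:**
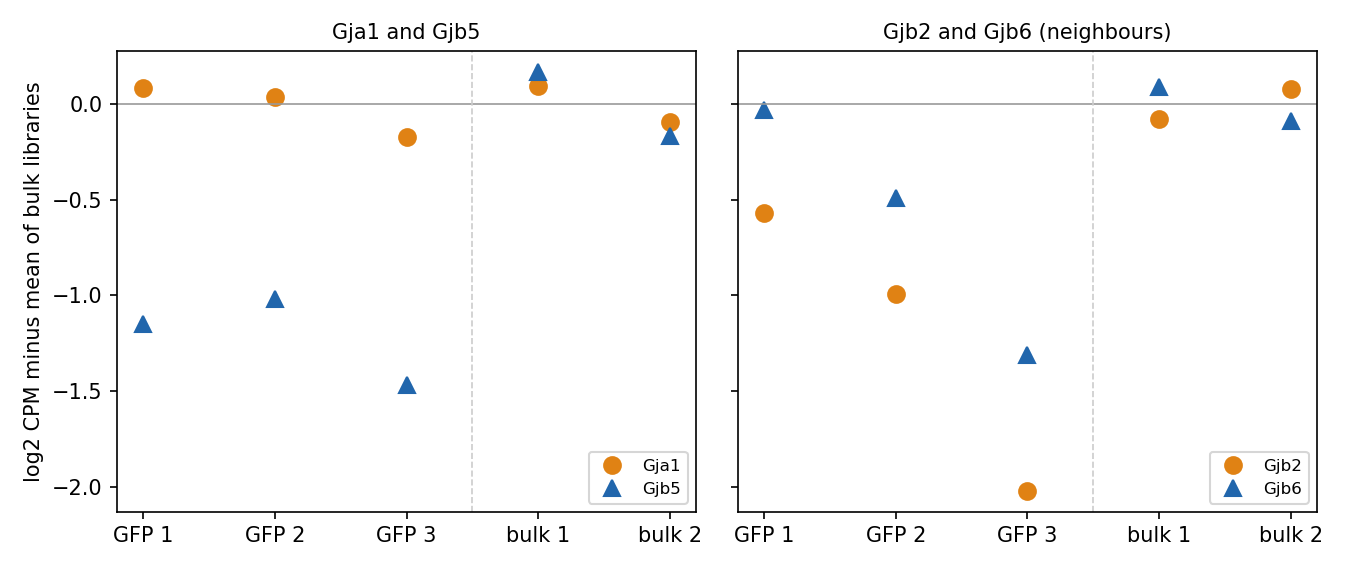
Log2 CPM of each gene minus its mean over the bulk libraries, in GFP libraries (left of the dashed line) and bulk libraries. Left, Gja1 and Gjb5. Right, the chromosome 14 neighbours Gjb2 and Gjb6. In GFP libraries Gjb5 lies well below Gja1, and Gjb2 lies below Gjb6 in each, with GFP 3 lowest for both.

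Gja3, the neighbour of Gjb2 on chromosome 14, showed the largest connexin change at a far lower level. It encodes Cx46, best known from the lens. It had 1, 0 and 8 counts in GFP replicates 1 to 3, against 174 and 225 counts in the bulk libraries. Its log2 change was -6.03 ± 0.81 (edgeR adjusted p = 0.00435), a size that depends on few counts in the GFP libraries. It passed the filter on low counts only through the bulk libraries, where it is high, so its call is given as a description. Among the 13 connexins that passed the filter, Gjb5 was the other one that edgeR called lower, and edgeR called 0 higher. At an unadjusted p under 0.05 there were 3 in all. The median log2 change of the 13 was -0.41, against 0.05 over all genes. It ran from -0.51 to -0.15 over the fits with a block, a trend removed or 1 library left out. The value of -0.15 came with the replicate block and also without GFP replicate 3. In 4 of the 13, among them Gja3, Gjb2 and Gjb5, every GFP library lay below both bulk libraries, as in 18.5% of all genes, while in 0 every GFP library lay above, as in 14.6% of all genes. The replicate block called 4 of the 13 lower, Gja3 and Gjb2 among them, in a fit that called 19.7% of all genes lower. Of the others tested, Gja4, Gja6, Gjb1, Gjc1 and Gjd3 stood at 0.107 to 3.57 CPM in GFP libraries and 0.184 to 2.55 CPM in bulk libraries, and none was called. The remaining 7 of the 20 connexin genes did not pass the filter on low counts, none with over 13 counts in a library, and 3 of them had no count in any library.

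**Figure D3:**
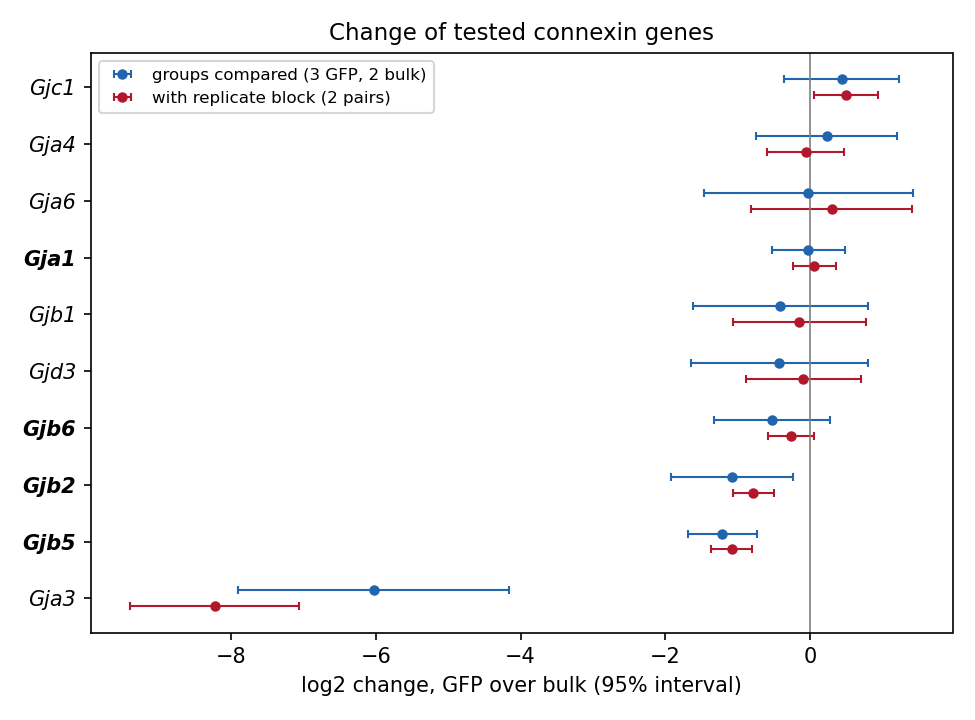
Log2 change (GFP over bulk) of tested connexin genes named in the text, with 95% intervals, from the group comparison (blue) and with the replicate block (red). The 4 genes described here are in bold. Gjb5 at -1.21 lies clear of 0 in both fits, Gja1 at -0.02 lies on 0, and Gja3 at -6.03 lies furthest out.

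Levels of different genes were compared as CPM per kilobase of the longest annotated transcript. In GFP-sorted cells the order of mean levels of the 4 genes was Gja1 (151.1), Gjb2 (30.0), Gjb5 (25.1) and Gjb6 (4.76). In bulk cells it was the same, with 152.8 for Gja1, 63.3 for Gjb2, 58.2 for Gjb5 and 6.84 for Gjb6. Only Gjb2 and Gjb5, as neighbours in this order, had overlapping libraries, in GFP-sorted cells (15.5 to 42.6 and 20.8 to 28.6) and in bulk cells (59.9 to 66.6 and 51.5 to 64.8). As a share of the CPM per kilobase of all 20 connexin genes, Gja1 made up 38.1 ± 1.06% in GFP-sorted cells and 30.7 ± 0.587% in bulk cells (SD, n = 3 and 2). Gjb5 made up 6.32 ± 0.565% in GFP-sorted cells and 11.6 ± 1.02% in bulk cells. The share of Gjb2 was 9.76%, 7.76% and 4.50% in GFP replicates 1 to 3, against 11.4% and 14.1% in the bulk libraries. The summed level of all connexin genes was 436.3, 409.6 and 345.6 CPM per kilobase in GFP libraries, against 524.4 and 472.1 in bulk libraries, so the higher share of Gja1 in GFP-sorted cells came with a lower total and not with a higher Gja1 level.

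**Figure D4:**
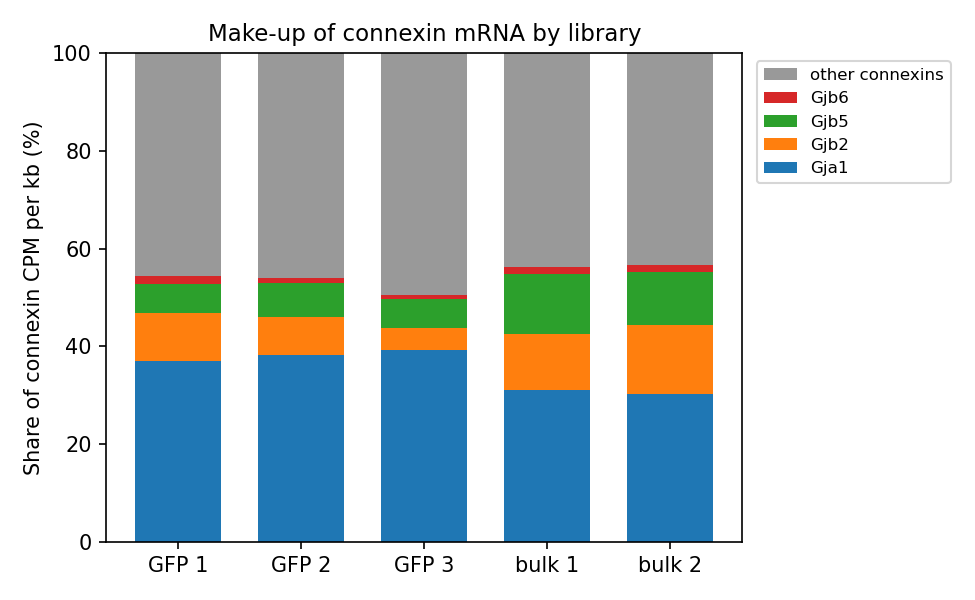
Share of each gene in the CPM per kilobase of all 20 connexin genes (percent), by library, GFP libraries left of bulk libraries. The Gja1 segment is larger in the GFP libraries (37.1% to 39.2%) than in the bulk libraries (30.2% and 31.1%), and the Gjb5 and Gjb2 segments are smaller.

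Pannexins form channels in the membrane of a single cell and are related to connexins in topology but not in sequence. Panx1, which releases ATP, was at 67.0, 67.1 and 58.1 CPM in GFP replicates 1 to 3, against 44.8 and 48.3 CPM in bulk libraries. Its log2 change of 0.46 ± 0.18 was not called (edgeR adjusted p = 0.256) but was with the replicate block (0.53, edgeR adjusted p = 0.00131). Panx3, a channel of bone, cartilage and skin, had 8, 4 and 2 counts in GFP libraries against 100 and 109 counts in bulk libraries. Its fitted log2 change was -4.43 ± 0.62 (edgeR adjusted p = 0.00518), but it passed the filter only through the bulk libraries and the size rests on few counts. Panx2 was near the floor, with at most 22 counts in a library.

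Among 20 genes for proteins that bind connexins or act in their trafficking and turnover, 19 were tested and edgeR called none in either direction, with 1 at an unadjusted p under 0.05. Limma-voom also called 0, and the DESeq2 Wald test called 1, Cav1. The list median log2 change was 0.08, against 0.05 over all genes. Cav1, which encodes the caveolae protein caveolin, was at 262.8, 187.0 and 229.5 CPM in GFP libraries, against 152.4 and 89.7 CPM in bulk libraries (log2 change 0.90 ± 0.28, edgeR adjusted p = 0.142, DESeq2 adjusted p = 0.0427). With the replicate block 3 of the 19 were called higher, a share near the 16.4% of all genes called higher in that fit, among them Cav1 (0.92, edgeR adjusted p = 3.23e-09) and Ezr (0.43, edgeR adjusted p = 0.0271), and Tjp1 was called lower (-0.66, edgeR adjusted p = 3.58e-05). Tjp1 encodes a scaffold protein of cell junctions that binds Cx43, and Ezr encodes ezrin, a linker of membrane and actin. Tjp1 was at 74.3, 92.5 and 138.2 CPM in GFP libraries, against 116.1 and 147.0 CPM in bulk libraries, so its groups overlapped. Tjp1 was named after its values were seen, as the one gene of the list called lower with the block.

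Markers of other cells moved between the groups together with Gjb5 and Gjb2. Of 20 suprabasal genes 9 were called lower and 0 higher. In 14 all GFP libraries lay below both bulk libraries, as in 18.5% of all genes. They include Lor, of the cornified envelope, at 5.80, 5.07 and 6.11 CPM in GFP libraries, against 286.2 and 183.3 CPM in bulk libraries. Of 15 tested hair matrix and inner root sheath genes 14 were called lower, of 12 melanocyte genes 11, of 14 Langerhans and myeloid genes 12, of 10 T cell genes 9, of 11 fibroblast genes 2, of 11 endothelial and mural genes 3 and of 6 red cell genes 5. None of these was called higher, while 5.14% of all genes were called lower and 0.145% higher. Some of the called genes passed the filter on low counts only through the bulk libraries, where they are high, so these calls are given as a description. Melanocyte genes summed to 17.6 to 38.3 CPM in GFP libraries and 259.7 to 447.9 CPM in bulk libraries, and T cell genes to 181.4 to 209.8 CPM in GFP libraries and 274.0 to 279.6 CPM in bulk libraries. Langerhans and myeloid genes summed to 339.4 to 584.8 CPM in GFP libraries and 697.8 to 704.7 CPM in bulk libraries. Red cell genes summed to 1.26 to 8.03 CPM in GFP libraries and 194.2 to 202.0 CPM in bulk libraries. Fibroblast sums overlapped, at 163.1 to 336.1 CPM in GFP libraries and 271.2 to 321.5 CPM in bulk libraries, as did endothelial and mural sums, at 28.6 to 35.8 CPM in GFP libraries and 32.6 to 41.1 CPM in bulk libraries. Single genes made up much of some sums, so the sums were also taken without the gene of the list with the highest GFP mean, a choice made after seeing the data. Without Thy1, at 170.4 to 195.5 CPM in GFP libraries and 125.2 to 140.1 CPM in bulk libraries, T cell genes summed to 11.1 to 18.5 CPM in GFP libraries and 133.9 to 154.5 CPM in bulk libraries. Without Epcam, at 305.8 to 539.0 CPM in GFP libraries and 296.0 to 303.9 CPM in bulk libraries, Langerhans and myeloid genes summed to 33.5 to 83.4 CPM in GFP libraries and 400.8 to 401.9 CPM in bulk libraries. The median log2 change was -3.41 for the T cell list and -3.38 for the Langerhans and myeloid list. Without Sparc, fibroblast genes summed to 55.7 to 195.4 CPM in GFP libraries and 186.0 to 219.2 CPM in bulk libraries, and their median log2 change was -1.85. Without Cspg4, endothelial and mural genes summed to 4.60 to 13.3 CPM in GFP libraries and 13.4 CPM in both bulk libraries, and their median log2 change was -1.18. Of all these genes, 1 T cell gene had no count in any GFP library. It had only 2 counts in each bulk library and was not tested. Of 14 basal layer genes none was called, and in 9 all GFP libraries lay above both bulk libraries, as in 14.6% of all genes. Of 12 outer root sheath and upper follicle genes, Krt75 alone was called, lower at 10.1, 13.8 and 5.46 CPM in GFP libraries against 46.1 and 95.1 CPM in bulk libraries. With the replicate block, 1 basal layer gene was called lower and 8 higher, 16 suprabasal genes lower and 2 higher, 1 outer root sheath and upper follicle gene lower and 7 higher, 9 fibroblast genes lower and 1 higher, and 7 endothelial and mural genes lower and 1 higher, in a fit that called 19.7% of all genes lower and 16.4% higher. Without either bulk library 0 endothelial and mural genes were called by edgeR. The part of these cell types in the connexin differences was not tested.

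The genes most like each connexin over the 5 libraries were found by the root mean square difference of centred log2 CPM, taken from the 8894 tested genes whose mean log2 CPM reached 3. For Gjb5 they were Il22ra1 (0.066), which encodes a subunit of the interleukin-22 receptor, Liph (0.086), a lipase gene, and Agpat4 (0.100), of phospholipid synthesis. Their log2 changes were -1.10, -1.19 and -1.16, a direction fixed by choosing them for their likeness to Gjb5. For Gjb2 they were the amino acid transporter gene Slc7a8 (0.106), the endoribonuclease gene Endou (0.134) and Psapl1 (0.234). Slc7a8 was at 27.7, 21.9 and 8.66 CPM in GFP libraries, against 39.8 and 43.8 CPM in bulk libraries, and so had its lowest level in GFP replicate 3 as Gjb2 did. For Gjb6 they were Pxdn (0.074), Abhd12b (0.131) and Snrnp25 (0.132), and for Gja1 Tmem183a (0.023), Usp12 (0.023) and Rab40c (0.027), with log2 changes of -0.01 to -0.05 for those of Gja1. With 5 libraries many genes come close to any pattern.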

How the data were processed

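RNA was sequenced from 3 GFP-sorted and 2 bulk keratinocyte samples. The authors deposited 1 table of raw counts, a whole number for each Ensembl gene ID in each library. Per the submitters' processing notes, STAR and genome build GRCm39 were used. The tool versions, the counter, its annotation and whether it used strand are not stated there, so reads of overlapping genes cannot be told apart. Symbols and transcript lengths came from the GENCODE M21 annotation by gene ID without version (52073 of 56691 matched). Promoter stretches came from RefSeq (GRCm38.p6), with all 4 genes matched by symbol.

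Genes were filtered with filterByExpr of edgeR 4.0.16 (minimum count 10, minimum total 15), which kept 18583 genes, scaled by TMM and tested with a group term in the quasi-likelihood test (R 4.3.3, 3 residual degrees of freedom, two-sided, Benjamini-Hochberg over all genes, threshold 0.05). The script was tested on simulated data. Alternatives were other scalings and filters, robust dispersion, DESeq2 1.42.0, limma-voom (limma 3.58.1), a loess correction for length and GC content (span 0.3, 18107 genes), a block for the replicate, and fits with each library left out. GFP 1 shares a title number with bulk 1, and GFP 2 with bulk 2. The number was read as that of an animal, though no label says so. The labels give the GFP and bulk libraries of a number different genotypes, Lrig1 positive and wild-type, which speaks against that reading. Across genes, the difference GFP 1 minus GFP 2 correlated with bulk 1 minus bulk 2 (Pearson r = 0.474). GFP 3 shares its number with no bulk library, so group changes fitted with the block rest on GFP 1 and 2 against bulk 1 and 2. The block leaves 1 residual degree of freedom. Xist sets GFP 3 apart from the other libraries, and the labels do not otherwise say that the libraries of a group came from separate animals, so p-values measure the spread between these libraries.

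The 4 genes and the gene lists were chosen with earlier results of these data known. The genes named were the 4 connexins, other connexins and pannexins past the filter, up to 4 genes of each other list and the 3 genes nearest to each connexin in pattern (predicted models left out). Those of a list were taken by smallest p (Lor, Cav1, Ezr and Krt75). Tjp1 was named outside this rule after its values were seen. Some genes of these lists are not reported here by name.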

Additional observations from a re-analysis of the deposited data

How the results depend on the processing

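Gjb5 was lower in GFP-sorted cells in all 16 alternative fits (log2 change -1.38 to -1.03) and called in 15. The exception was the fit without bulk replicate 1, and over the fits that leave out one library its values ran from -1.38 to -1.03 (edgeR adjusted p = 0.0163 to 0.123). Gjb2 was lower in all 16 (-1.42 to -0.77) and called in 3, with no filter beyond a count above 0 (-1.09), with the replicate block (-0.78) and with the block plus removal of the length and GC trend (-0.91). Gjb6 was called in 1 of 16, with the block and that trend removed (-0.42). Gja1 was called in 0 of 16 (-0.14 to 0.09), and turned positive with the replicate block (0.06), with the block and trend removed (0.07) and without GFP replicate 3 or bulk replicate 1 (0.05 and 0.09; range over left-out libraries -0.12 to 0.09). The ratio of Gjb2 to Gjb5 changed sign without GFP replicate 1 (-0.26) and bulk replicate 1 (-0.22), against 0.02 in all libraries, with a range of -0.26 to 0.30 over left-out libraries.

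Of all genes, 982 were called. The number was 1918 with no filter, 1499 by the DESeq2 Wald test, 6692 with the replicate block (3652 lower, 3040 higher) and 5420 with the block and trend removed (2941 lower, 2479 higher), and 480 to 1205 without one library, lowest without bulk replicate 2 (480) and bulk replicate 1 (523). The 13 connexins tested had 2 calls, 4 with the block, 6 with the block and trend removed, and 1 to 2 without one library, 1 without bulk replicate 1. All connexins called were lower. Of all genes, 5.14% were called lower in the main fit, 19.7% with the block and 16.2% with the block and trend removed. The cause of these differences between fits was not tested. With 3 and 2 libraries no exact permutation test can go below 0.2, and the low connexins had too few counts to test.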
